A study of Mus musculus with 12 samples.

Results

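The 9 myelin structural genes Mbp, Mag, Mog, Mobp, Cnp, Cldn11, Mal, Opalin and Ugt8a were followed in 12 RNA-seq libraries of primary neural stem cells (NSCs) from the forebrain of newborn mouse pups. They were taken by symbol from the 45792 genes listed, each matched 1 Ensembl identifier, and all 9 were among the 15706 genes with enough counts to be tested. The libraries fell into 3 groups of 4: untreated WT NSCs of the C57BL/6J strain, vehicle-treated Ncf1-/- NSCs, labelled as untreated, and Ncf1-/- NSCs given mouse recombinant Igfbp2. Ncf1 encodes an organizer subunit of NADPH oxidase, so that both treated and vehicle cultures carried the same constitutive deletion, on a line backcrossed to C57BL/6J. The labels give an Igfbp2 dose of 100 ng/ml (the methods of the study state a lower one), added 48 h after plating and left for 48 h. All cultures were at a low passage in serum-free medium with EGF, FGF, insulin, transferrin, selenite and B-27, which favours stem cell growth over maturation. By the methods of the study each WT pup gave 1 culture and each Ncf1-/- pup gave 2, 1 for vehicle and 1 for Igfbp2.

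Myelin is the stack of compacted membrane that oligodendrocytes wrap around axons. Mbp and Mobp are basic proteins of the cytoplasmic face that hold it compact, Cnp is a phosphodiesterase that keeps cytoplasmic channels open, Mag and Mog are adhesion proteins at the inner and outer faces, Cldn11 forms the tight junctions of the sheath, Mal is a proteolipid of lipid rafts, Opalin is a glycoprotein of the oligodendrocyte membrane, and Ugt8a makes the galactolipid galactosylceramide. The genes are switched on when precursors leave the cell cycle and become oligodendrocytes, and the transcription factors Sox10 and Myrf are known to drive many of them, while stem cells hold most of them low. Cnp and Mal are known outside this lineage as well. The comparison of WT and Ncf1-/- cultures asks what the NADPH oxidase contributes to this programme, and that of Igfbp2 and vehicle asks whether Igfbp2 changes it in cells without Ncf1.

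Before the results, some libraries call for care. WT replicate 4 had 6.46 CPM (counts scaled to library size with TMM factors) summed over 4 Y-linked genes, against 107 to 118 CPM in WT replicates 1 to 3, and a sample sheet in the code of the study lists it as treated with apocynin, an oxidase inhibitor, whereas its label gives no treatment. The same sum was 105 to 116 CPM in the vehicle-treated and 7.80 to 9.18 CPM in the Igfbp2-treated libraries. Igfbp2 and Y-linked expression therefore cannot be told apart. The methods of the study describe paired cultures of each Ncf1-/- animal. Cultures of the same animal share its sex, so these sums go against that pairing. Ncf1 itself had 1 to 7 counts in every library, too few to check the genotype. The libraries held 18201622 to 34086554 estimated counts, with WT replicate 3 the deepest.

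All 9 genes were detected in each WT library, at levels that differed up to 13.2 times between cultures. Mbp was at 3694, 3885, 327 and 1886 CPM in WT replicates 1 to 4. Cnp was at 2445, 2310, 685 and 1649 CPM. Replicate 3 was the lowest and replicate 4 the next lowest in both. The same order held for 8 of the 9 genes, by CPM and by TPM (a level per transcript length), against 14.3% of all genes tested by CPM and 4.79% by TPM. From the highest to the lowest WT library the level differed 13.2 times for Mobp, 11.9 times for Mbp, 8.94 times for Mag and 7.17 times for Mog, the genes of compact myelin and its adhesion. The span was 4.69 times for Ugt8a, 4.17 for Cldn11, 3.57 for Cnp and 3.46 for Opalin. Replicate 3 alone set the low end of all these spans, and they are narrower without it. Mobp then ran from 9.97 to 48.4 CPM and Mbp from 1886 to 3885 CPM. Among 11161 genes that averaged 5 CPM or more the median span between WT libraries was 1.31 times, and 4.52% spanned at least 3 times. Within the vehicle-treated Ncf1-/- libraries the median was 1.20 times. The spans there were 2.59 times for Mog and 2.34 for Mag, both at 6 counts or fewer per library, 1.79 for Opalin, 1.43 for Mbp, 1.28 for Cnp and 1.09 for Cldn11.

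**Figure D1:**
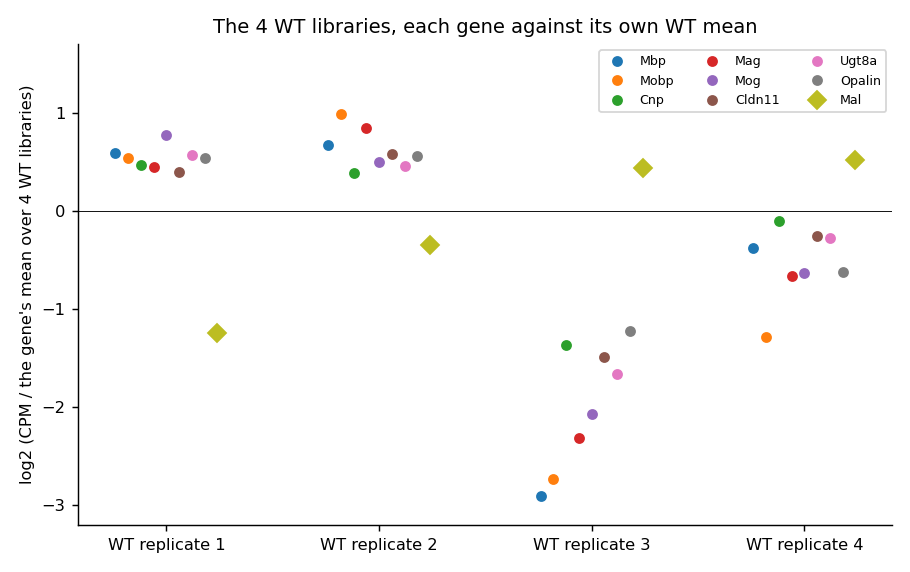
Each of the 9 genes in the 4 WT libraries, as log2 of its CPM over its own mean in WT. The 8 other genes are lowest in replicate 3, next lowest in replicate 4 and above their mean in replicates 1 and 2, while Mal (diamonds) is below its mean in replicates 1 and 2 and above it in replicates 3 and 4.

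Mal ran against the rest. It was at 0.864, 1.62, 2.78 and 2.95 CPM in WT replicates 1 to 4, lowest where the others were high. In the same libraries the summed level of 11 neural stem cell genes was 3536, 3762, 9541 and 5427 CPM. The WT culture with least myelin transcript thus had the highest sum of this list. Its members differed, with Vim at 626 to 4569 CPM and Fabp7 at 988 to 2178 CPM over the WT libraries, and Sox2 at 371 to 408 CPM. The summed level of 8 astrocyte genes was 6512, 7152, 11982 and 10695 CPM, also high in replicates 3 and 4. The summed level of 9 oligodendrocyte precursor genes was between 2379 and 2787 CPM. Most of it was Ptprz1, and Pdgfra ran from 173 to 433 CPM. What these levels have to do with the myelin genes was not tested, and in bulk RNA fewer oligodendrocytes and less RNA per oligodendrocyte cannot be told apart.

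Per length, WT replicates 1, 2 and 4 shared the order Mbp, Cnp, Cldn11, Mag, Ugt8a and Mobp, in TPM. Mbp was at 1343, 1602 and 831 TPM there and made up 58.4%, 60.1% and 53.2% of the summed TPM of the 9 genes. In replicate 3 it was at 150 TPM, or 31.4% of the sum, and Cnp came before it at 244 TPM, or 51.1%. The gap between Mbp and Cnp in TPM over the 4 WT libraries (982 ± 640 against 529 ± 200, SD, n = 4) was within their spread, whereas Cldn11 (104 ± 47.1), the next in order, was below Cnp in each library. Mag (75.5 ± 52.1) and Ugt8a (51.8 ± 23.9) did not separate and changed places in replicate 3. Mobp stood at 7.11 ± 5.98 TPM, and Opalin (1.54 ± 0.724), Mog (1.45 ± 0.950) and Mal (0.590 ± 0.325) were the lowest and overlapped.

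Because 8 of the 9 genes were lower than in WT in both Ncf1-/- groups, the 250 bases before the most upstream start site of each are described from RefSeq (GRCm38.p6), with 8 of the 9 genes matched. Mbp had no window, and the 8 windows include that of Mal. Both strands were searched for 5 kinds of motif. Those of Myrf were the letters CTGGCAC and, as a variant, CTGGTAC. Those of Sox factors were ACAAAG and, as a variant, ACAATG. The E-box was searched as CAGCTG and, as a variant, CATCTG. The GC box was GGGCGG, and for the TATA box TATAAA was used. The Myrf letters stood in 3 of the 8 windows (Cnp, Mag and Mog) and in 5.88% of 27025 promoters, 1 per gene. The Sox letters stood in 4 of the 8 (Cnp, Mag, Mobp and Opalin) and in 25.4% of all promoters, and the E-box in 1 (Opalin) and in 25.3%. A GC box was found in 2 of the 8 (Cnp and Ugt8a) and in 33.0% of all, and a TATA box in 0 of the 8 and in 13.0%. Mobp held 6 Sox matches, as did 1 of the 27025 promoters, its own, and 0.529% held at least 3. The 5 windows below show the genes with Myrf letters, the cluster in Mobp, and Mal, which was not called lower. The windows of Mal and of Cldn11, which was called lower, both held none of the letters searched. Capitals mark Myrf, Sox and E-box matches, which did not overlap. The strand is that of the gene, read 5′ to 3′. The windows are chr11:100574689-100574938 for Cnp (plus strand), chr7:30914923-30915172 for Mag (minus), chr17:37023399-37023648 for Mog (minus), chr9:120149492-120149741 for Mobp (plus) and chr2:127656696-127656945 for Mal (minus).
Cnp: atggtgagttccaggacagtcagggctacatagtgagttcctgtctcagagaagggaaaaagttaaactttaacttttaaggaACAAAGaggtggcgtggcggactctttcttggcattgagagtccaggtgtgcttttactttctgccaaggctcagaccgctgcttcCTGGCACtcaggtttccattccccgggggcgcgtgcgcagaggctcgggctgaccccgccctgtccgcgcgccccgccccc
Mag: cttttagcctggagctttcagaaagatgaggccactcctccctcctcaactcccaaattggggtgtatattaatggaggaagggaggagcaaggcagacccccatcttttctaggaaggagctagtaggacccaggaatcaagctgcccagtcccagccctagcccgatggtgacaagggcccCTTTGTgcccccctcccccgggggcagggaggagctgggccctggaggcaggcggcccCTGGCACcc
Mog: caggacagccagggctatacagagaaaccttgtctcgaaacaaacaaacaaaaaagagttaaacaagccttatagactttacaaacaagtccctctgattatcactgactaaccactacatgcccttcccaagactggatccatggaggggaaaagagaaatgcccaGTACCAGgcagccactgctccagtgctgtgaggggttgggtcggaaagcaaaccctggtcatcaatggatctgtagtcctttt
Mobp: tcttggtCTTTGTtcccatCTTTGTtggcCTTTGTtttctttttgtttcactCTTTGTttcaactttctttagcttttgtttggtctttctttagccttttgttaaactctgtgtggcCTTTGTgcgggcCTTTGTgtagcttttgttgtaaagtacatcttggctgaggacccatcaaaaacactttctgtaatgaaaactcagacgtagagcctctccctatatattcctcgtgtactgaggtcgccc
Mal: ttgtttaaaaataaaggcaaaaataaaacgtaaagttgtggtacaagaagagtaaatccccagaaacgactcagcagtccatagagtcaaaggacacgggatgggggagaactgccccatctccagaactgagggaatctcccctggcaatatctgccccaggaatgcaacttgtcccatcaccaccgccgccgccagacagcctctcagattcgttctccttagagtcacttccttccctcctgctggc
The Myrf letters began 81 bases before the start of Cnp, 9 before that of Mag and 83 before that of Mog, and the 6 Sox matches of Mobp lay between 243 and 120 bases before its start. These are matches of letters, and binding was not measured.

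In vehicle-treated Ncf1-/- NSCs 8 of the 9 genes were lower than in WT at an adjusted p-value under 0.05 (edgeR quasi-likelihood test, p-values adjusted over the genes tested), against 28.2% of all genes tested called lower. Mal was the exception. For the same 8 genes every vehicle-treated library lay below every WT library, against 25% of all genes tested. Mag and Mog passed the filter on counts only through the WT libraries, so that they could only come out lower. No support is drawn from their calls, and the result rests on Mbp, Mobp, Cnp, Cldn11, Opalin and Ugt8a. Over the 9 genes the median log2 fold change was −4.27, and over all genes tested it was 0.02. The 8 genes stayed called with each of the 12 libraries left out in turn, WT replicates 3 and 4 included. The study's own test on TPM called 3 of them lower (Cnp, Cldn11 and Ugt8a), against 7.38% of the genes it tested. The calls of Mbp, Mag, Mog, Mobp and Opalin were lost, at log2 fold changes of −10.07, −9.67, −5.10, −2.90 and −2.10.

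Mbp, the main basic protein of compact myelin, was at 2.70, 2.37, 3.40 and 2.65 CPM in the vehicle-treated libraries, from 62, 49, 77 and 71 counts. Set against the WT values above, this left 0.114% of the WT mean (log2 fold change −9.78 ± 0.77, SE, adjusted p = 4.90e-07, edgeR). The lowest WT library was still 96.2 times the highest vehicle-treated one. Mag, the adhesion protein that faces the axon, was at 232, 305, 34.2 and 107 CPM in WT and had 6, 3, 3 and 3 counts in the vehicle-treated libraries, between 0.112 and 0.261 CPM. Its log2 fold change was −9.99 ± 0.79 (adjusted p = 5.10e-07, edgeR). With 13871 counts over the WT libraries and 15 over the vehicle-treated ones, the ratio was 922, with a 95% counting interval from 559 to 1648. Mog, of the outermost lamella, had 113, 79, 25 and 35 counts in WT and 1, 2, 2 and 1 in the vehicle-treated libraries. Its ratio of summed counts per depth was 41.9, with a counting interval of 19.0 to 115. These intervals cover counting error only.

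Cnp fell least steeply among the abundant genes and stayed well expressed. It was at 202, 184, 210 and 164 CPM in the vehicle-treated libraries, 10.7% of the WT mean (log2 fold change −3.22 ± 0.31, adjusted p = 2.28e-06, edgeR). Cldn11, the tight-junction claudin, was at 334, 377, 90.4 and 212 CPM in WT and at 13.6, 12.4, 13.1 and 13.4 CPM in the vehicle-treated libraries, a log2 fold change of −4.27 ± 0.35 (adjusted p = 6.99e-07). Ugt8a, the galactolipid enzyme, went from 374, 347, 79.7 and 208 CPM to 8.50, 7.84, 8.12 and 9.51 CPM (−4.89 ± 0.39, adjusted p = 6.19e-07). In all 3 the vehicle-treated libraries were tight and the lowest WT library was at least 3.26 times the highest of them.

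Mobp and Opalin came closest to the lowest WT culture. Mobp was at 35.5, 48.4, 3.67 and 9.97 CPM in WT and at 2.48, 3.19, 2.83 and 2.91 CPM in the vehicle-treated libraries (log2 fold change −3.09 ± 0.61, adjusted p = 7.45e-04, edgeR), so that WT replicate 3 was 1.15 times the highest vehicle-treated library. Opalin was at 5.37, 5.45, 1.58 and 2.39 CPM in WT and at 0.566, 1.02, 0.883 and 0.672 CPM in the vehicle-treated libraries (−2.22 ± 0.39, adjusted p = 2.96e-04). Mal, the raft proteolipid, was at 2.004, 1.50, 2.08 and 1.83 CPM, inside the WT range, and its log2 fold change was −0.16 with a 95% interval from −0.97 to 0.66 (adjusted p = 0.746).

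**Figure D2:**
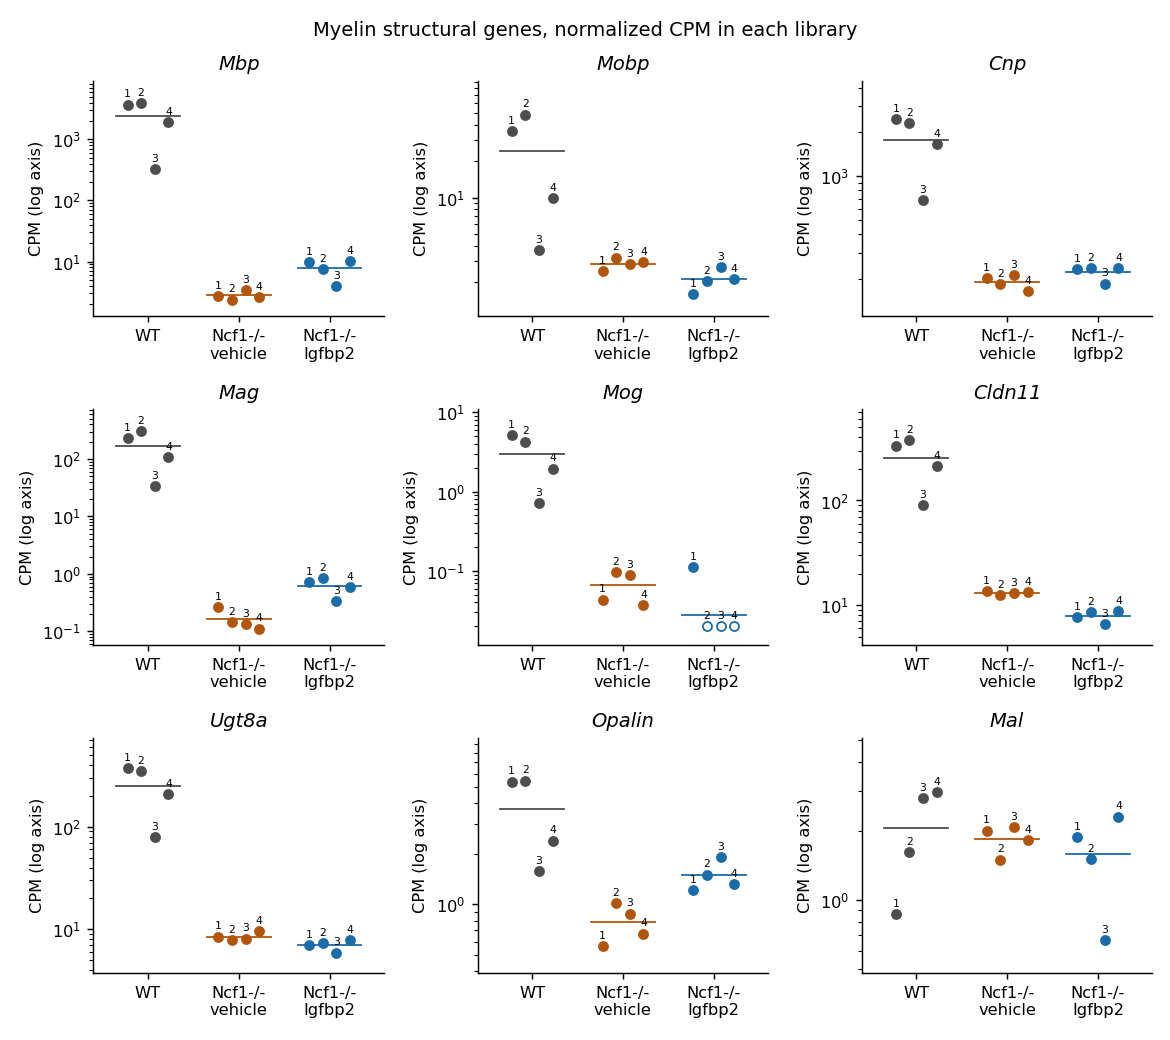
Normalized CPM of each gene in each library on a log axis, with the replicate number above each point and the group mean as a line. Open points mark libraries with 0 counts of Mog, drawn at 0.02 CPM. For 8 genes the vehicle-treated libraries lie below all WT libraries, and for Mal the 3 groups overlap.

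The make-up of what remained was different. In the vehicle-treated libraries Cnp made up 83.9% to 87.1% of the summed TPM of the 9 genes, and Mbp 1.07% to 1.31%. The order per length was Cnp, Cldn11 and Ugt8a in each of the 4, with Mag and Mog last. The 9 genes together held 0.125% to 0.709% of the counts of a WT library and 0.0219% to 0.0266% of those of a vehicle-treated library.

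**Figure D3:**
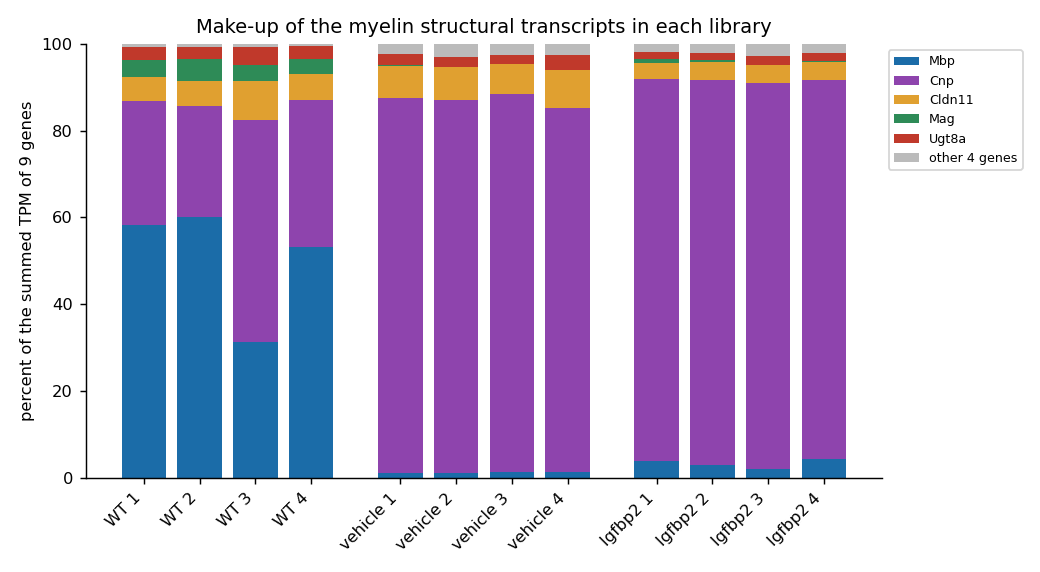
Share of each gene in the summed TPM of the 9 genes, as stacked bars for each library. Mbp makes up 31.4% to 60.1% in WT and at most 4.26% in Ncf1-/- libraries, where Cnp makes up at least 83.9%.

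Other genes of the oligodendrocyte programme, counted by lists, fell as well in part. Over all genes tested, 28.2% were called lower and 28.9% higher in this contrast. This balance depended on the scaling, with 3159 genes lower and 6025 higher by library totals, against 4433 and 4546 with TMM factors. Of 18 other genes of mature oligodendrocytes tested, of 23 listed, 12 were lower and 3 higher with vehicle in Ncf1-/- than in WT, with a median log2 fold change of −1.11. The deacetylase gene Sirt2 fell from 1294 to 106 CPM (log2 fold change −3.61, adjusted p = 4.75e-07, edgeR) and the protease gene Adamts4 from 243 to 77.2 CPM (−1.65), whereas Plekhb1 was at 233 and 242 CPM. All 8 genes of premyelinating oligodendrocytes were lower, with a median of −3.65. Among them Gpr17, a receptor that marks this stage, fell from 1663 to 40.3 CPM (−5.37), Bcas1 from 1312 to 69.7 CPM (−4.23), Itpr2 from 339 to 40.5 CPM (−3.07) and the kinase gene Fyn from 740 to 278 CPM (−1.41). Of 10 genes of myelin lipid enzymes and raft proteins 8 were lower and 1 higher, with a median of −1.25. The lipid transporter gene Abca2 fell from 239 to 59.7 CPM, Degs1 from 78.9 to 54.4 CPM (−0.53) and Far1 from 58.4 to 37.7 CPM (−0.63), while Cers2 was at 92.7 and 94.0 CPM. All 5 axon-contact genes were lower, with a median of −1.42, from Nfasc (1499 to 48.7 CPM, −4.94) to Cadm4 (−1.42), Dag1 (−0.81) and Jam3 (−0.53).

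The lineage transcription factors were split, and the precursor genes were lower. Of 10 transcription factor genes 8 were lower and 2 higher, with a median log2 fold change of −1.66. Those higher were Olig1 (796 to 1450 CPM, 0.87) and Olig2 (348 to 427 CPM, 0.29), which precursors already express, whereas Sox8 (−1.11) and Zeb2 (−1.76) fell. Under library totals without TMM factors the median of all genes itself moved to 0.19. Myrf and Sox10, named for the letters searched in the promoters after their values were seen, fell from 450 to 8.37 CPM (−5.75) and from 501 to 47.8 CPM (−3.39). All 9 precursor genes were lower, with a median of −1.29. The largest by level was Ptprz1 (1764 to 1311 CPM, −0.43), and Pdgfra, the receptor that defines precursors, fell from 283 to 70.3 CPM (−2.01), Vcan by 1.01 and Cspg4 by 0.93 on the log2 scale.

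Markers of other cell types were counted in the same contrast, to be read against the 28.2% of all genes tested that were lower and the 28.9% that were higher. Of 11 neural stem cell genes 3 were higher and 7 lower. Their summed level was 8927 to 9687 CPM in the vehicle-treated libraries, against 3536 to 9541 CPM in WT, where replicate 3 was at 9541. Of 8 astrocyte genes 7 were lower (2464 to 3006 against 6512 to 11982 CPM), and of 10 neuronal genes 7 were lower (506 to 573 against 692 to 1091 CPM). Of 7 Schwann cell and peripheral myelin genes 4 were tested and all 4 were higher (72.1 to 85.7 against 15.9 to 34.0 CPM), with Cdh19 and Pmp22 at the highest levels. Of 6 endothelial and mural genes tested, of 8 listed, 1 was higher and 2 lower (10.7 to 16.0 against 14.9 to 30.7 CPM). Summed microglia genes stayed at 2.13 CPM or less in these groups and C1qa and C1qb had no counts. Summed meningeal fibroblast genes were at 4.98 to 6.71 CPM with vehicle and 0.432 to 2.01 CPM in WT, without overlap, and all 3 of the 5 listed that were tested were higher (Col3a1 with a log2 fold change of 4.28). The part of these cell types in the fall of the myelin genes was not tested.

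The 6 genes outside the 9 whose pattern over the 12 libraries was most like their mean were Elovl7, Dusp15, Dnm3, Cadm3, Nfasc and Slc1a1. Likeness was the root-mean-square difference in log2 CPM after each gene's own mean was taken off, and it was 0.17 to 0.23 for these 6. For the 9 genes themselves it ran from 0.37 (Ugt8a), 0.40 (Cldn11) and 0.42 (Mog) to 2.09 (Mal) and 2.16 (Mbp), so that each of the 6 lay nearer to the mean than any of the 9. Elovl7, a fatty acid elongase, was at 20.4 to 95.8 CPM in WT, 3.002 to 3.68 in vehicle-treated and 3.35 to 4.54 in Igfbp2-treated libraries. Nfasc, the neurofascin of axon contacts, was at 390 to 2336, 46.0 to 52.5 and 54.7 to 63.2 CPM.

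With Igfbp2 the same 8 genes were lower than in WT, and Mal was not. At an adjusted p-value under 0.05 these 8 were called lower in Igfbp2-treated Ncf1-/- than in WT NSCs (edgeR), against 30.8% of all genes tested. For 7 of them every Igfbp2-treated library lay below every WT library, against 26.6% of all genes tested, and Opalin overlapped in CPM but not in TPM. Mag and Mog again could only come out lower, because of the filter on counts. Mbp in Igfbp2-treated cultures was at 0.321% of its WT mean, Mag at 0.366%, Ugt8a at 2.78%, Cldn11 at 3.12%, Mobp at 8.66%, Cnp at 12.5% and Opalin at 40.3%. Mog had 2 counts with Igfbp2, both in replicate 1, so that none remain without that library. Against its 252 counts in WT this was a ratio of 103 per depth, with a 95% counting interval from 28.1 to 851.5. Mal again was not called (log2 fold change −0.38, 95% interval −1.22 to 0.46, adjusted p = 0.412). This comparison shares its WT libraries with the one above and gave the same 8 calls with each of the 12 libraries left out, while the study's own test on TPM called 3 (Cnp, Cldn11 and Ugt8a), against 16.6% of the genes it tested.

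Between Igfbp2 and vehicle, the genes went in different directions at these low levels, and whether they were called depended on the fit. In the fit over all 12 libraries 0 of the 9 genes passed an adjusted p-value of 0.05 (edgeR), against 25% of all genes tested in either direction, and 3 had an unadjusted p under 0.05 (Mbp, Opalin and Cldn11). DESeq2 called 1, Mag, against 27.4%. Mag had 3 to 6 counts per library with vehicle and 7 to 14 with Igfbp2, and the filter on counts included WT, where it was high. No conclusion is therefore drawn from its calls between Igfbp2 and vehicle. With WT left out, the 8 Ncf1-/- libraries alone gave 3 genes called higher (Mbp, Mag and Opalin) and 2 lower (Cldn11 and Ugt8a). Of all genes tested 37% were called in either direction. These were the 15706 genes filtered with WT included, so that the limit on Mag holds here too. The biological coefficient of variation was 0.250 within WT, 0.116 within vehicle and 0.122 within Igfbp2. With the replicate number as a block, the same 5 genes were called, against 34.5% of all genes tested. Mag was at 1.84 on the log2 scale in this fit and in the 8 libraries alone, against 1.88 over all 12. The Y-linked sums go against the pairs behind the block, and why the calls differed between the fits was not tested. Leaving out WT replicate 3 alone gave 3 calls (Mbp, Opalin and Cldn11), against 30.5%, and leaving out WT replicate 4 gave 0. In CPM with TMM factors the same 5 genes did not overlap between the groups, against 34.1% of all genes tested. By library totals Opalin overlapped and Mobp did not, which made 5 genes against 42.5%. By TPM Mag and Opalin overlapped and Mal did not, which made 4 genes against 41.2%. Mbp, higher with Igfbp2, and Cldn11 and Ugt8a, lower, were apart on all 3 scales.

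Mbp was higher in each Igfbp2-treated library than in any vehicle-treated one. It had 177, 125, 82 and 208 counts in the Igfbp2-treated libraries, or 9.80, 7.51, 3.92 and 10.2 CPM, all above the highest vehicle-treated library at 3.40 CPM. The log2 fold change was 1.50 ± 0.60 (95% interval 0.19 to 2.80, adjusted p = 0.0852, edgeR, all 12 libraries) and 1.45 in the 8 Ncf1-/- libraries (adjusted p = 0.00101). Mag had 13, 14, 7 and 12 counts with Igfbp2, between 0.335 and 0.841 CPM, above the 0.261 CPM of the highest vehicle-treated library. Its log2 fold change was 1.88 with an interval from −0.80 to 4.56 (adjusted p = 0.281), and 1.84 in the 8 libraries (adjusted p = 0.00484). The filter on counts included WT, where Mag had 1191 to 5660 counts per library. No conclusion is therefore drawn from its call in the 8 libraries. Opalin was at 1.22, 1.50, 1.91 and 1.33 CPM, above the vehicle-treated maximum of 1.02 CPM (0.93 ± 0.41, adjusted p = 0.111, and 0.90 with adjusted p = 0.0174 in the 8 libraries). All 3 were at a few counts to 208 counts per library.

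Cldn11 and Ugt8a were lower with Igfbp2. Cldn11 was at 7.64, 8.53, 6.65 and 8.79 CPM with Igfbp2, all below the lowest vehicle-treated library at 12.4 CPM. Its log2 fold change was −0.73 ± 0.33 (95% interval −1.45 to −0.01, adjusted p = 0.124, edgeR, all 12 libraries) and −0.77 in the 8 Ncf1-/- libraries (adjusted p = 1.61e-04). Ugt8a was at 6.98, 7.27, 5.93 and 7.81 CPM, just below the lowest vehicle-treated value of 7.84 CPM, a log2 fold change of −0.28 ± 0.37 (adjusted p = 0.602) and −0.32 in the 8 libraries (adjusted p = 0.0371).

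The other 4 genes overlapped between Igfbp2 and vehicle in CPM with TMM factors. Cnp was at 232, 234, 185 and 237 CPM with Igfbp2 (log2 fold change 0.23, 95% interval −0.39 to 0.84), Mobp at 1.61, 2.04, 2.68 and 2.11 CPM (−0.43, −1.87 to 1.01) and Mal at 1.88, 1.50, 0.670 and 2.31 CPM (−0.22, −1.06 to 0.62). Mog had 2, 0, 0 and 0 counts with Igfbp2 and at most 2 with vehicle, so that no fold is given. Directions near 0 depended on the scaling, because library totals moved the median log2 fold change of all genes from 0.04 to −0.23 and TPM (with 0.1 added) to −0.42. Cnp was at −0.05 and −0.27 under these and Mbp, Mag and Opalin stayed above 0 under both, while Cldn11 was at −1.01 and −1.19, more than the shift, and was called under both. Mal was at 0.170 to 0.400 TPM with Igfbp2 and 0.600 to 0.640 TPM with vehicle, without overlap, and was called lower on the TPM scale (−0.86, adjusted p = 0.0424, limma). TPM also takes in the estimated transcript length, which for Mal was 1895 to 2778 bases with vehicle and 2778 bases in each Igfbp2-treated library. The TPM call of Mal is therefore not read as a change in its counts, which overlapped in CPM. By library totals 648 genes were called higher and 5259 lower, against 2238 and 1685 with TMM factors.

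**Figure D4:**
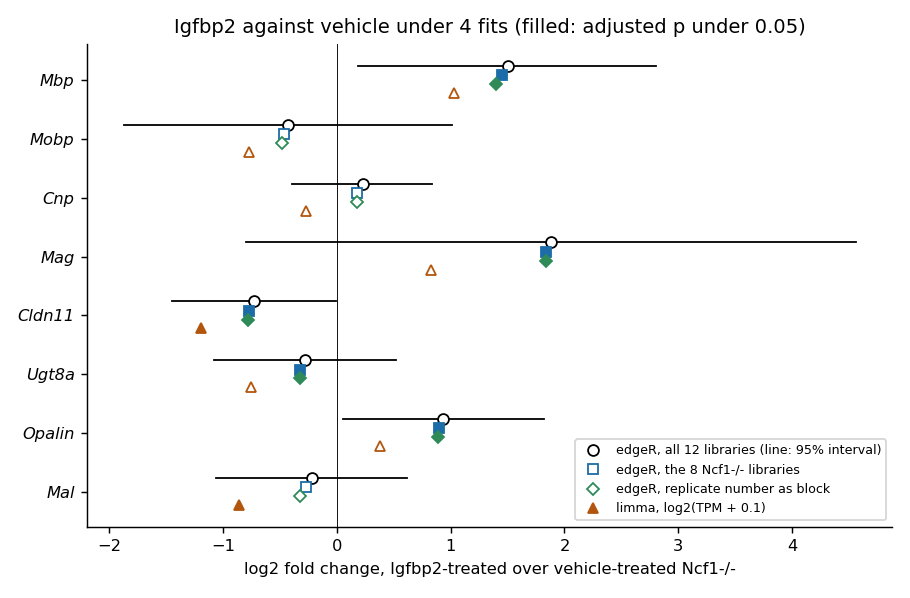
Log2 fold change of Igfbp2-treated over vehicle-treated Ncf1-/- NSCs for 8 genes (Mog left out) under 4 fits, filled where the adjusted p is under 0.05. Mbp, Mag and Opalin lie above 0 and Cldn11 and Ugt8a below 0 in all 4, and the fit over 12 libraries (circles, with 95% intervals) calls none.

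The other oligodendrocyte lists were counted between Igfbp2 and vehicle in the same fit over 12 libraries, in which 25% of all genes tested were called in either direction. Premyelinating genes had 1 of 8 higher (Itpr2, 40.5 to 73.8 CPM, log2 fold change 0.87, adjusted p = 0.0256, edgeR), other mature oligodendrocyte genes 3 higher and 1 lower of 18, lipid and raft genes 2 higher of 10 (Abca2, 0.88, and Degs1, 0.31), axon-contact genes 2 higher and 1 lower of 5 (Dag1, 0.72, Cadm4, 0.41 and Jam3, −0.36), transcription factors 0 higher and 1 lower of 10 and precursor genes 1 higher of 9 (Cspg4, 51.2 to 99.1 CPM, 0.95). Their medians were between −0.03 and 0.41, against 0.04 for all genes. With TMM factors the summed levels of 4 of these 6 lists did not overlap and were higher with Igfbp2 than with vehicle. They were 985 to 1191 against 830 to 929 CPM for the other mature oligodendrocyte genes, 361 to 378 against 287 to 303 CPM for lipid and raft genes, 749 to 831 against 540.1 to 577 CPM for axon-contact genes and 586 to 618 against 449 to 499 CPM for premyelinating genes. By library totals only the axon-contact sums of these 4 stayed apart, and by TPM all 4 overlapped, while the transcription factor sums were lower with Igfbp2 on both scales. Summed meningeal fibroblast genes were at 8.85 to 11.6 CPM with Igfbp2 and 4.98 to 6.71 CPM with vehicle, with 2 of the 3 tested higher, and endothelial and mural genes at 25.6 to 31.2 against 10.7 to 16.0 CPM, with 2 of 6 higher. Summed Schwann cell and peripheral myelin genes were at 86.7 to 109 against 72.1 to 85.7 CPM, with 1 of 4 higher (Egr2), and summed neuronal genes at 459 to 491 against 506 to 573 CPM, with 2 of 10 lower (Dcx and Tubb3). With TMM factors the sums of these 4 lists of other cell types did not overlap between the groups, whereas those of the neural stem cell, astrocyte and microglia genes did. By library totals the Schwann cell sums overlapped as well, and by TPM only the neuronal sums of these 4 stayed apart. The neural stem cell sums were lower with Igfbp2 on both of these scales, the microglia sums by library totals and the astrocyte sums by TPM. The part of these, or of the Y-linked genes, in the shifts of the myelin genes was not tested.

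Transcript make-up was read from a measure that does not use the level, the mean length of a gene's transcripts weighted by their estimated abundance, in libraries with at least 10 counts of the gene. It can change only for genes with several annotated transcripts, so that Cldn11 and Opalin, with 1 each, could not vary. Mog had too few counts in all Ncf1-/- libraries, and Mag in those with vehicle and in 1 with Igfbp2. For Mbp the weighted length was 1909, 1850, 1946 and 1875 bases in WT, 2518, 2362, 2554 and 2433 with vehicle and 2236, 2306, 2129 and 2121 with Igfbp2. The 3 groups did not overlap. For Cnp it was 2522, 2522, 2456 and 2502 bases in WT, 2340, 2356, 2346 and 2343 with vehicle and 2364, 2359, 2357 and 2373 with Igfbp2, again without overlap. Of 9373 genes with a length that varied, 10.3% did not overlap between vehicle and WT, 11% between Igfbp2 and vehicle and 12.8% between Igfbp2 and WT, and of the 5 genes of the set that could be read 2 did so in each, Mbp and Cnp. Mobp, Ugt8a and Mal overlapped.

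The annotated transcripts of Mbp bear on these lengths. Of its 16 transcripts, 4 start within 224 bases of the upstream end of the gene, and 12 start between 79324 and 88116 bases downstream. The downstream starts give the classic myelin basic proteins, and the upstream start gives the longer golli transcripts, which are known also outside myelin. The longest transcript from the downstream starts has 2070 bases, and 2 from the upstream start are longer, up to 4797 bases. Every Ncf1-/- library had a weighted length above 2070 bases, which cannot be reached without some share of the 2 longer transcripts. The least share that gives the observed length was 10.7% to 17.8% with vehicle and 1.88% to 8.64% with Igfbp2, and 0% in WT. Shorter transcripts could offset a larger share in any library, so that these bounds do not show whether the use of the starts differed from WT. In Cnp the coding transcript has 2357 bases and 1 longer transcript, without a coding annotation, has 2904. The WT lengths need at least 18.2% to 30.2% of the longer one, lowest in WT replicate 3, and the least share in the Ncf1-/- libraries was 0% to 3.01%. Here too shorter transcripts leave room for a larger share. These shares are lower bounds from the estimated lengths, which rest on 49 to 208 counts of Mbp per Ncf1-/- library.

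**Figure D5:**
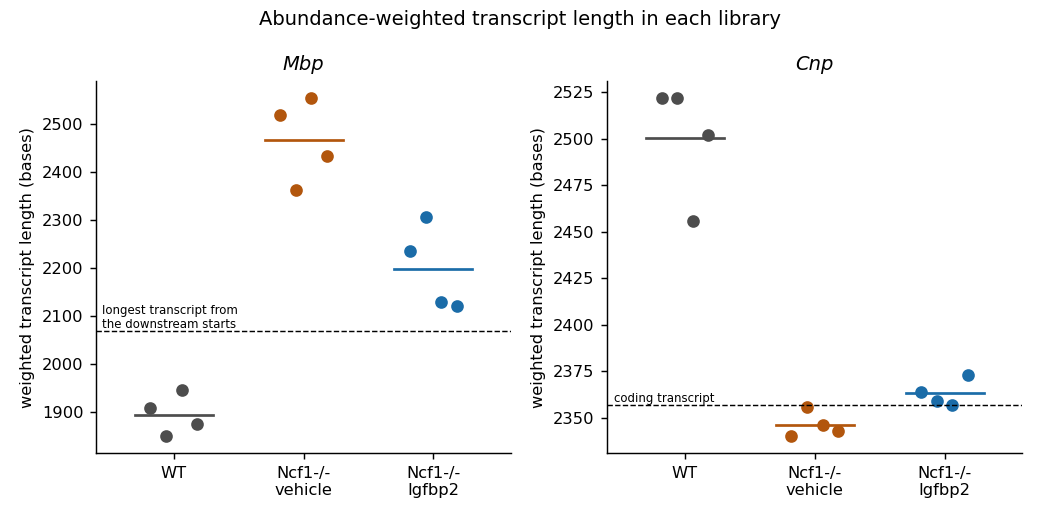
Abundance-weighted transcript length of Mbp and Cnp in each library, in bases, with group means as lines. The dashed lines mark 2070 bases for Mbp (longest transcript from the downstream starts) and 2357 bases for Cnp (the coding transcript), and the 3 groups do not overlap in either gene.

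The positions of the genes in the annotation (GENCODE M21, GRCm38) are chr18:82475146-82585637 for Mbp, chr9:120149707-120181484 for Mobp, chr11:100574904-100591729 for Cnp and chr3:31149920-31164324 for Cldn11, all on the plus strand. On the minus strand are Mag at chr7:30899176-30914873, Mog at chr17:37010743-37023398, Mal at chr2:127633226-127656695, Opalin at chr19:41061710-41077113 and Ugt8a at chr3:125865271-125938619.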

How the data were processed

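The authors sequenced total RNA without rRNA and used Bowtie2 and RSEM (GRCm38, per the submitters' processing notes; the annotation release was matched here to GENCODE M21 by transcript identifiers). The authors deposited expected counts, without normalization, TPM (scaled to a fixed sum per library) and FPKM (not used) for each library, and a merged table whose score equals TPM times the number of transcripts (not used beyond symbols). Counts were rounded. Genes were kept by filterByExpr and fitted over 12 libraries with TMM factors (edgeR 4.0.16, R 4.3.3), one mean per group, with Benjamini-Hochberg adjustment over 15706 genes. CPM used TMM factors. Alternatives were DESeq2 1.42.0, limma 3.58.1 on log2(TPM + 1) and log2(TPM + 0.1), library totals, other filters, only the groups compared, the study's own analysis of TPM, each library left out, and the replicate number as a block. The replicate numbers were taken as pairs from the study's methods. The Y-linked sums go against that pairing, so the fit with the block may not remove differences between animals. Same-numbered cultures correlated between -0.0674 and 0.0330 in their deviations over 4 pairs, and differently numbered ones between -0.2474 and 0.2570. The fit was tested on simulated data, but no value from that test is given here and no result rests on it. Members and gene lists were chosen with earlier results of these data known. Named genes were the 9, up to 4 per list with the highest mean CPM, and the 6 most alike. Some genes that the rule selects are not reported here. Within a group, replicates were cultures of separate pups, and no pair of libraries agreed within sampling noise.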

Additional observations from a re-analysis of the deposited data

Results flagged for a closer look

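Cnp in Igfbp2-treated replicate 3 was at 184.8 CPM, apart from the other 3 Igfbp2-treated libraries at 232 to 237 CPM. Among 27 sets of 4 CPM values, less those of Mog in Ncf1-/- libraries, this was the only value so far from the rest of its group. How often chance gives such a value was not tested, and the sets share the same libraries, so that no conclusion is drawn from it. In the same library Mbp, Mag, Cldn11, Ugt8a and Mal were also the lowest of the Igfbp2-treated group, at 3.92, 0.335, 6.65, 5.93 and 0.670 CPM, while Mobp and Opalin were the highest, at 2.68 and 1.91 CPM.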

How the results depend on the processing

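Under the study's own test on TPM, 3 of the 9 genes were called lower with vehicle and 3 with Igfbp2, both against WT (Cldn11, Cnp and Ugt8a), in place of 8 each; every other alternative called 8, or 6 of the 6 genes that passed a mean of at least 5 CPM, and the range over left-out libraries was 8 to 8. Between Igfbp2 and vehicle, in place of 0 and 0, the genes called higher numbered 1 with DESeq2, 3 with the 2 groups alone and 3 with the replicate block, and those called lower 1 with library totals, 2 with the 2 groups alone, 2 with the replicate block and 2 with limma on either TPM scale (Cldn11 and Mal); with libraries left out they ranged from 0 to 2 higher and from 0 to 1 lower, above 0 only without WT replicate 3. Mal changed sign against WT with vehicle, from −0.16 to 0.01 with library totals, 0.06 and 0.22 with limma on log2(TPM + 1) and log2(TPM + 0.1), 0.09 with the study's own test, and 0.02 without WT replicate 3 or 4, uncalled in each, with a range from −0.41 to 0.02 over left-out libraries. With Igfbp2 against vehicle Mal moved to 0.04 without Igfbp2-treated replicate 3 (range −0.47 to 0.04), and Cnp to −0.05 with library totals, −0.26 and −0.27 with limma and −0.26 with the study's own test. All genes called between Igfbp2 and vehicle numbered 3923, against 5907 with library totals, 6354 and 6519 with limma, 2149 with the study's own test and 2272 to 4787 with libraries left out; against WT the study's own test called 4329 with vehicle and 5592 with Igfbp2, in place of 8979 and 9801. Overlap of levels was also read by library totals and by TPM, a choice made after seeing the data. Between Igfbp2 and vehicle the other gene lists whose sums did not overlap went from 8 of 13 to 7 and 4, and against WT the same 8 of the 9 genes were apart on each scale with vehicle. The causes were not tested. The numbers of Mag and Mog counts in Ncf1-/- libraries limit their fold changes. Their calls against WT could only come out lower, because they passed the filter on counts only through WT. Mag is among the genes called higher with DESeq2, with the 2 groups alone and with the replicate block. No conclusion is drawn from these calls, because the filter on counts included WT, where Mag was high.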
